A study of Mus musculus with 12 samples.

Results

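The genes described here are Indian hedgehog (Ihh), 4 genes that receive or relay its signal (Ptch1, Smo, Gli1 and Gli2) and 5 transcription factors that act with progesterone in the uterus (Nr2f2, Hand2, Sox17, Gata2 and Zbtb16). They were taken by symbol from the 35896 genes to which the transcripts could be matched, and all 10 were found and had enough counts to be tested. Whole uteri came from 12 wild type female Swiss Webster mice, an outbred stock, aged 8 to 12 weeks. The 4 stages of the mouse cycle, proestrus, estrus, metestrus and diestrus, had 3 uteri each, and no animal was described as treated. Polyadenylated RNA was read by 3' TagSeq, which counts a short stretch near the end of each transcript. Uteri are named by stage and by the number in their title, which runs 1 to 3 in proestrus, 3 to 5 in estrus and in diestrus, and 5 to 7 in metestrus.

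Indian hedgehog is a secreted protein made by the uterine epithelium, where progesterone acting through its receptor switches it on. It binds the receptor Ptch1 on neighbouring stromal cells, which releases the membrane protein Smo from inhibition and lets GLI transcription factors act on their targets, Gli1 and Ptch1 among them. Nr2f2 and Hand2 are stromal factors through which progesterone restrains epithelial growth, Sox17 and Gata2 act in the epithelium, and Zbtb16 is a stromal progesterone target.

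Each library held 1652841 to 2200563 estimated counts, and levels are given as CPM, counts scaled to a common library size with TMM factors. A count of 3, the most that a count of 0 allows, was worth 1.36 to 1.88 CPM. Intervals and floors cover counting error only and not the spread between uteri. No molecular identifiers were described for these libraries, so copies of the same molecule may have been counted more than once. The intervals and floors do not allow for such copies. Nothing in the labels says whether the 3 uteri of a stage came from separate litters, cages or days, so p-values measure the spread between these samples only. Replicates of log2 CPM correlated at 0.939 to 0.957 across genes within proestrus, estrus and diestrus and at 0.897 to 0.910 within metestrus. Because whole organs were measured, fewer cells of a type and less RNA per cell cannot be told apart.

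Over the 4 stages, 8 of the 10 genes differed, against 23.2% of the 12052 genes tested. The 10 genes and all lists below were chosen with earlier results of these data known. Shares set beside those of all genes are therefore descriptions only. The test was the quasi-likelihood F test of edgeR, and a gene was called where its p, adjusted by the Benjamini-Hochberg method over all tested genes, was under 0.05. Ihh, Ptch1, Gli1, Nr2f2, Hand2, Sox17 and Gata2 had their highest mean in diestrus, the progesterone-dominated stage before the next ovulatory cycle, while 5.62% of all tested genes both differed and peaked there. Zbtb16 also differed and had its highest mean in metestrus, as did 1.53% of all genes. Smo and Gli2, which carry the signal inside the receiving cell, did not pass the test.

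**Figure D1:**
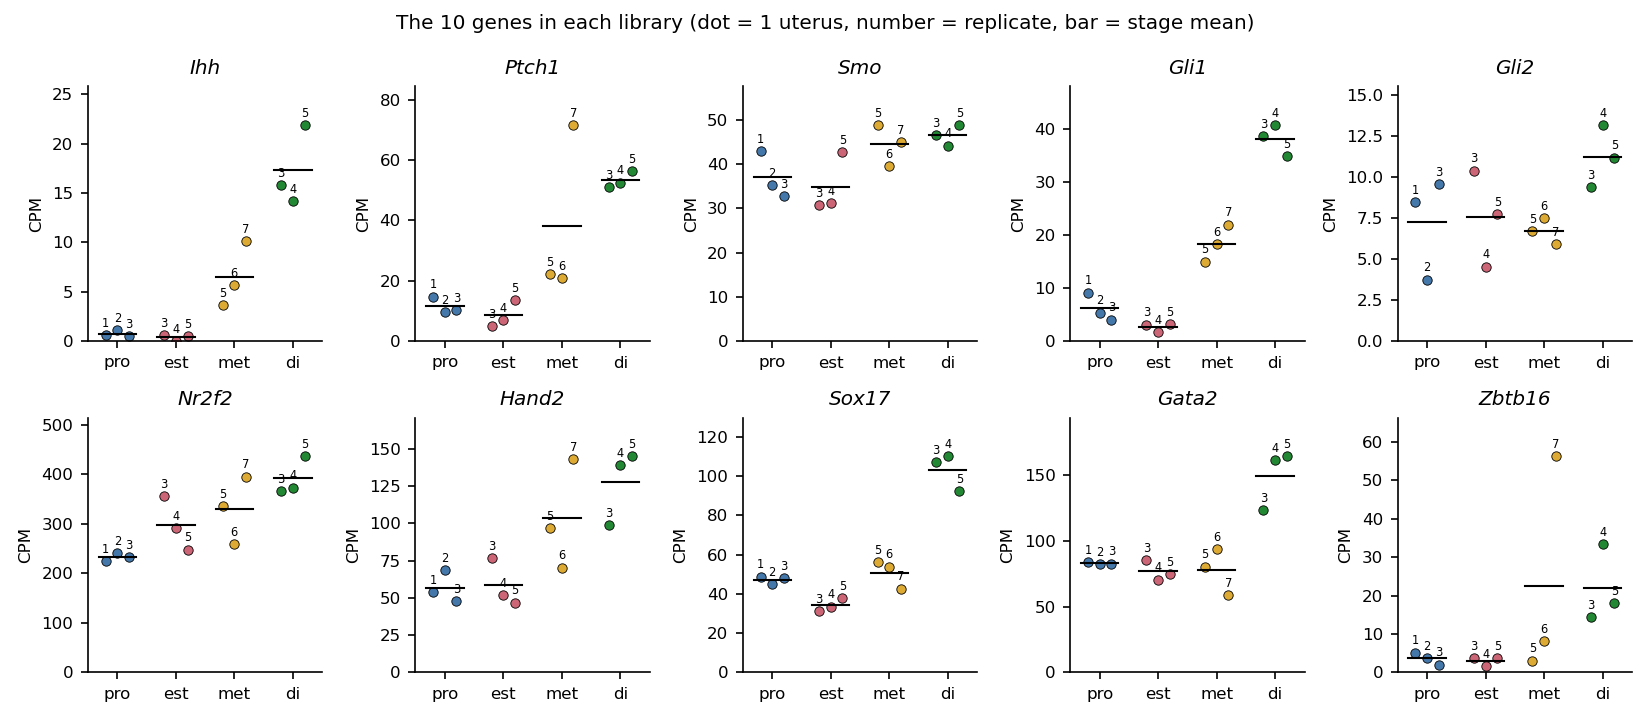
Level of each of the 10 genes in CPM (y axis, linear, from 0) in proestrus (pro), estrus (est), metestrus (met) and diestrus (di), with 1 dot per uterus, its number beside it and a bar at the stage mean. Diestrus dots of Ihh, Gli1, Sox17 and Gata2 lie above every other dot of the same gene, and metestrus uterus 7 stands above the other metestrus dots of Ptch1 and Zbtb16.

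The ligand gene Ihh (ENSMUSG00000006538; GRCm38 chr1:74945315-74951672, minus strand) was barely detected in proestrus and estrus and was higher in metestrus and in diestrus. Its promoter is shown because it is the ligand, whose stage means spanned the widest ratio of the 10 genes; it is the RefSeq sequence upstream of the start site (GRCm38.p6, chr1:74951673-74951922, minus strand), and capitals mark CCACCC, the core of GLI sites, written here as its reverse complement GGGTGG, and ACAAT, the SOX core:
Ihh: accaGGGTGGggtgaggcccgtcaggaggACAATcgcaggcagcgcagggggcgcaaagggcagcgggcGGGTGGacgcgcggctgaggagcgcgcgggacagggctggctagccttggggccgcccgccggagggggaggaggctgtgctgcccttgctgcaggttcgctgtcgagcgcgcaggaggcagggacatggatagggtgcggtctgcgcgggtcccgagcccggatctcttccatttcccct
Searched on both strands, CCACCC was also present in the windows of Smo and Gli2 and in 28.1% of the 32817 RefSeq windows of 250 bases, and ACAAT in 27.7% of them. No window of these genes held the full GLI site GACCACCCA (0.225% of all windows), the progesterone receptor half-site AGAACA (16.1%) or the nuclear receptor half-site AGGTCA (14%). RefSeq windows were at hand for 7 of the 10 genes, with 2 windows for Gata2; Gli1, Sox17 and Zbtb16 had none. Such matches describe letters in this window and not bound sites.

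Ihh stood at 0.566, 1.07 and 0.504 CPM in proestrus uteri 1, 2 and 3. In estrus uteri 3, 4 and 5 it stood at 0.614, 0 and 0.455 CPM. Both stages therefore lay at or under the floor, with 4 and 2 counts in all. In metestrus uteri 5, 6 and 7 its level was 3.60, 5.64 and 10.1 CPM. In diestrus uteri 3, 4 and 5 it reached 15.8, 14.2 and 21.9 CPM. Every metestrus uterus lay above every proestrus and estrus uterus, and every diestrus uterus above every metestrus uterus. Stage means were 0.713 ± 0.311, 0.356 ± 0.319, 6.44 ± 3.30 and 17.3 ± 4.05 CPM in cycle order (SD, n = 3), and the adjusted p of the F test was 1.01e-04. Summed over a stage, diestrus held 100 counts and estrus 2, a ratio after scaling of 47.9 (95% counting interval 12.9 to 401). Metestrus against estrus gave a ratio of 17.6 (4.51 to 152) and metestrus against proestrus 8.87 (3.15 to 34.5). Diestrus was 2.71 times metestrus (1.81 to 4.15) by counting error alone, but across uteri this step did not pass the test (log2 fold change 1.43 ± 0.41, SE; adjusted p = 0.175).

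Ptch1 (ENSMUSG00000021466; chr13:63508328-63573598, minus strand), the receptor that holds Smo inactive until the ligand binds and itself a GLI target, was low in proestrus and estrus and high in diestrus. Its RefSeq promoter (GRCm38.p6, chr13:63565736-63565985, minus strand) is shown as that of a known target gene of the pathway; none of the motifs searched was found in it, so no base is in capitals:
Ptch1: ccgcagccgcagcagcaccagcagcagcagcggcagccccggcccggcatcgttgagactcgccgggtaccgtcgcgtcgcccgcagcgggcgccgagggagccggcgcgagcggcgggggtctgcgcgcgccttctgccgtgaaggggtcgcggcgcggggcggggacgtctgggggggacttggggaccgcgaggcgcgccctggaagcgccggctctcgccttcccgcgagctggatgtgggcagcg
The window had a GC content of 78.4%, against 72% for that of Ihh and a median of 52.4% over all windows. Ptch1 stood at 14.7, 9.63 and 10.1 CPM in proestrus uteri 1, 2 and 3 and at 4.91, 6.81 and 13.6 CPM in estrus uteri 3, 4 and 5. It stood at 22.1, 20.7 and 71.6 CPM in metestrus uteri 5, 6 and 7 and at 51.0, 52.5 and 56.2 CPM in diestrus uteri 3, 4 and 5. The diestrus uteri lay close together, while the metestrus uteri were split, with uterus 7 above all of diestrus. Means in cycle order were 11.5 ± 2.82, 8.46 ± 4.59, 38.1 ± 29.0 and 53.2 ± 2.68 CPM (SD, n = 3; adjusted p of the F test 0.00201). Proestrus and estrus overlapped and were 1 neighbouring pair in the order of levels that did not differ beyond its spread (log2 fold change -0.38 ± 0.53, adjusted p = 0.669), and metestrus and diestrus were another (0.48 ± 0.39, adjusted p = 0.687). With counts rebuilt from the deposited TPM, which weight short transcripts more, the F test of Ptch1 gave an adjusted p of 0.182 and the log2 fold change of proestrus against diestrus became -0.42 in place of -2.21. Over all alternatives the adjusted p of that F test ran from 3.34e-08 to 0.182. In proestrus uterus 1 the estimated counts of Ptch1 included 2.73 on a transcript of 349 bases and 2.79 on one of 809 bases.

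Smo (ENSMUSG00000001761; chr6:29735503-29761365, plus strand) encodes the membrane protein that passes the signal inward. It stood at 43.0, 35.3 and 32.7 CPM in proestrus uteri 1, 2 and 3 and at 30.7, 31.2 and 42.8 CPM in estrus uteri 3, 4 and 5. It stood at 48.9, 39.5 and 45.0 CPM in metestrus uteri 5, 6 and 7 and at 46.5, 44.2 and 48.9 CPM in diestrus uteri 3, 4 and 5. Every stage overlapped its neighbours in the cycle except diestrus and proestrus, where the lowest diestrus uterus stood just above the highest proestrus uterus. Smo did not pass the F test (adjusted p = 0.193, and 0.0960 to 0.580 over the alternatives), and its means ran from 34.9 ± 6.81 CPM in estrus to 46.5 ± 2.36 CPM in diestrus (SD, n = 3).

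Gli1 (ENSMUSG00000025407; chr10:127329882-127341974, minus strand), a transcriptional activator that is itself switched on by hedgehog signalling, was higher in metestrus and in diestrus than in proestrus and estrus. It stood at 9.06, 5.35 and 4.03 CPM in proestrus uteri 1, 2 and 3 and at 3.07, 1.70 and 3.18 CPM in estrus uteri 3, 4 and 5. It stood at 14.9, 18.2 and 21.9 CPM in metestrus uteri 5, 6 and 7 and at 38.6, 40.7 and 34.8 CPM in diestrus uteri 3, 4 and 5. No stage overlapped another, and the order was estrus, proestrus, metestrus, diestrus. Means in cycle order were 6.15 ± 2.61, 2.65 ± 0.824, 18.3 ± 3.49 and 38.1 ± 2.98 CPM (SD, n = 3; adjusted p of the F test 1.43e-05). Of the neighbours in that order, metestrus was above proestrus (log2 fold change 1.58 ± 0.30, adjusted p = 0.0136; lost without proestrus uterus 2 or 3 and in the fit of these stages alone, with 0.00201 to 0.0870 over the alternatives), while the fall from proestrus to estrus (-1.16 ± 0.39, adjusted p = 0.0571) and the step from metestrus to diestrus (1.06 ± 0.25, adjusted p = 0.0977) did not pass the test. The exons of Gli1 overlap those of Arhgap9 on the opposite strand, and 5.3% of the 31-base words of its transcripts occur in overlapping genes. Because the use of strand in counting is not given in the sources used here, reads of the pair may be mixed. Arhgap9 had means of 2.71, 8.14, 7.93 and 4.36 CPM in cycle order, and its part in the level of Gli1 was not tested.

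Gli2 (ENSMUSG00000048402; chr1:118834132-119053619, minus strand) encodes the GLI factor that first responds to Smo. It stood at 8.49, 3.75 and 9.57 CPM in proestrus uteri 1, 2 and 3 and at 10.4, 4.54 and 7.73 CPM in estrus uteri 3, 4 and 5. It stood at 6.69, 7.52 and 5.92 CPM in metestrus uteri 5, 6 and 7 and at 9.40, 13.2 and 11.2 CPM in diestrus uteri 3, 4 and 5. The diestrus uteri lay above the metestrus uteri but overlapped proestrus and estrus, and Gli2 did not pass the F test (adjusted p = 0.369). At these levels the log2 fold changes of Gli2 had standard errors of 0.38 to 0.40, which hold both counting error and spread between uteri. Even a fitted change of 0.75 from metestrus to diestrus did not pass (adjusted p = 0.496), so smaller changes could not be detected.

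Nr2f2 (ENSMUSG00000030551; chr7:70351944-70366735, minus strand), the nuclear receptor COUP-TFII, lies downstream of Ihh in the stroma and was lowest in proestrus. It stood at 224, 241 and 232 CPM in proestrus uteri 1, 2 and 3 and at 356, 291 and 248 CPM in estrus uteri 3, 4 and 5. It stood at 336, 259 and 395 CPM in metestrus uteri 5, 6 and 7 and at 366, 373 and 436 CPM in diestrus uteri 3, 4 and 5. All 3 proestrus uteri lay below every other uterus, while metestrus overlapped both estrus and diestrus and the diestrus uteri lay above the estrus uteri. Means in cycle order were 232 ± 8.84, 298 ± 54.2, 330 ± 68.5 and 392 ± 38.2 CPM (SD, n = 3). The F test passed with an adjusted p of 0.0287, but this call was lost in 6 of 18 alternatives, among them leaving out proestrus uterus 1, 2 or 3 or diestrus uterus 3 or 5, with adjusted p between 0.00388 and 0.0888 over all 18. Its exons overlap those of a gene on the opposite strand that is not analysed here. Of its 31-base words, 8.12% occur in other genes, and how much of its count this affects was not tested.

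Hand2 (ENSMUSG00000038193; chr8:57320983-57324633, plus strand), a stromal basic helix-loop-helix factor induced by progesterone that curbs growth factor signals to the epithelium, was higher in diestrus than in proestrus and estrus. Its RefSeq promoter (GRCm38.p6, chr8:57320733-57320982, plus strand) is shown because it held matches to motifs of factors in the set; capitals mark CATCTG, an E-box of HAND factors present in 14.5% of all windows, and AGATAA, the GATA motif present in 9.99%, written here as its reverse complement TTATCT:
Hand2: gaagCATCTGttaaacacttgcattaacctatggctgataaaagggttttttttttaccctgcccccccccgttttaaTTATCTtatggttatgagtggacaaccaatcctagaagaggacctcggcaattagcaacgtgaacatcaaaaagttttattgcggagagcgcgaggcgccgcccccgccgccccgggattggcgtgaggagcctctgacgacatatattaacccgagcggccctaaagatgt
Hand2 stood at 53.8, 68.5 and 47.9 CPM in proestrus uteri 1, 2 and 3 and at 76.8, 51.7 and 46.8 CPM in estrus uteri 3, 4 and 5. It stood at 96.8, 70.2 and 143 CPM in metestrus uteri 5, 6 and 7 and at 99.0, 139 and 145 CPM in diestrus uteri 3, 4 and 5. Proestrus and estrus overlapped, metestrus uterus 6 fell within the estrus range, and metestrus uterus 7 fell within the diestrus range. Means in cycle order were 56.7 ± 10.6, 58.4 ± 16.1, 103 ± 37.0 and 128 ± 25.1 CPM (SD, n = 3; adjusted p of the F test 0.00798). A divergent transcript, Hand2os1, overlaps its exons on the opposite strand and is not analysed here, and 17.4% of the 31-base words of Hand2 occur in other genes.

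Sox17 (ENSMUSG00000025902; chr1:4490931-4497354, minus strand), an SRY-box factor of uterine epithelium and of blood vessels that binds near Ihh, was lowest in estrus and highest in diestrus. It stood at 48.7, 45.0 and 47.9 CPM in proestrus uteri 1, 2 and 3 and at 31.3, 33.5 and 37.8 CPM in estrus uteri 3, 4 and 5. It stood at 56.1, 53.9 and 42.6 CPM in metestrus uteri 5, 6 and 7 and at 107, 110 and 92.2 CPM in diestrus uteri 3, 4 and 5. The estrus uteri lay below and the diestrus uteri above all others, and proestrus fell within the metestrus range. Means in cycle order were 47.2 ± 1.97, 34.2 ± 3.27, 50.9 ± 7.24 and 103 ± 9.69 CPM (SD, n = 3; adjusted p of the F test 4.51e-05). Sox17 shares 15.7% of its 31-base words with a gene on the opposite strand that is not analysed here.

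Gata2 (ENSMUSG00000015053; chr6:88193891-88207032, plus strand), a zinc finger factor that acts upstream of the progesterone receptor, had overlapping levels in proestrus, estrus and metestrus and a higher one in diestrus. It stood at 83.8, 82.4 and 82.6 CPM in proestrus uteri 1, 2 and 3 and at 85.4, 70.4 and 74.6 CPM in estrus uteri 3, 4 and 5. It stood at 80.3, 93.4 and 58.6 CPM in metestrus uteri 5, 6 and 7 and at 123, 161 and 164 CPM in diestrus uteri 3, 4 and 5. All 3 diestrus uteri lay above the other 9. The means of the first 3 stages were 82.9 ± 0.752, 76.8 ± 7.71 and 77.4 ± 17.6 CPM, and that of diestrus was 149 ± 22.7 CPM (SD, n = 3; adjusted p of the F test 0.00183).

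Zbtb16 (ENSMUSG00000066687; chr9:48654297-48836222, minus strand) encodes PLZF, a zinc finger repressor that progesterone and glucocorticoids induce. It stood at 5.10, 3.75 and 2.02 CPM in proestrus uteri 1, 2 and 3 and at 3.68, 1.70 and 3.64 CPM in estrus uteri 3, 4 and 5. It stood at 3.09, 8.15 and 56.2 CPM in metestrus uteri 5, 6 and 7 and at 14.4, 33.4 and 18.0 CPM in diestrus uteri 3, 4 and 5. The diestrus uteri lay above all of proestrus and estrus, while the metestrus mean of 22.5 ± 29.3 CPM (SD, n = 3) rested on uterus 7 and was 5.62 CPM without it. The F test passed with an adjusted p of 0.0302 and was lost in 7 of 16 alternatives, each of which left out 1 of the proestrus or estrus uteri or diestrus uterus 4 (adjusted p from 9.28e-05 to 0.0745 over all 16).

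The question of when in the cycle these genes moved was put to 6 contrasts between stages in the same fit. The contrasts share uteri, so each is given on its own. From proestrus to estrus none of the 10 genes passed the test by edgeR, against 17.1% of all genes. There were 2 with an unadjusted p under 0.05, Gli1 and Sox17 (log2 fold change -0.46 ± 0.15, adjusted p = 0.0507), and DESeq2 also called 0. With another scaling, a stricter count filter, or the fit of these 2 stages alone, 1 of the 10 passed, and so it did without proestrus uterus 3 or any 1 of the metestrus uteri. The median log2 fold change of the 10 genes was -0.17, beside 0.02 for all genes tested.

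From estrus to metestrus 4 of the 10 rose, against 2.82% of all genes called higher. Gli1 rose by a log2 fold change of 2.74 ± 0.34 (adjusted p = 5.23e-04) and Ihh by a fitted 3.92 ± 0.69 (adjusted p = 0.00520). Ptch1 rose by 2.11 ± 0.47 on the log2 scale (adjusted p = 0.0176), a call that was lost without estrus uterus 3 (adjusted p = 0.0646) or 4 (0.0650) and ranged from 7.50e-05 to 0.178 over the alternatives. Without metestrus uterus 7 the log2 fold change of Ptch1 was 1.31. Sox17 rose by 0.57 ± 0.15 (adjusted p = 0.0365), and that call was lost in 13 of 19 alternatives, with adjusted p from 0.0157 to 0.261. Losses of the Sox17 call followed leaving out any of the proestrus or estrus uteri, metestrus uterus 5 or 6, or diestrus uterus 3. Hand2 (0.83 ± 0.26, adjusted p = 0.0709) and Zbtb16 (2.85 ± 0.88, adjusted p = 0.0668) did not pass. The median log2 fold change of the 10 genes was 0.70, beside 0.01 for all genes tested.

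From metestrus to diestrus 2 of the 10 rose, Sox17 by a log2 fold change of 1.02 ± 0.14 (adjusted p = 0.0111) and Gata2 by 0.95 ± 0.17 (adjusted p = 0.0443). Over all 12052 genes, 27 passed in this contrast in either direction, and 0.133% were called higher. That total of 27 ran from 5 without diestrus uterus 4 to 83 without metestrus uterus 7 and 173 without metestrus uterus 6. It was 11 to 16 without any 1 of the other uteri. It was 153 by DESeq2, 256 with no filter and 0 with counts rebuilt from TPM or in the fit of these stages alone. The Gata2 call was lost in 11 of 19 alternatives (adjusted p from 7.05e-04 to 0.353), 9 of which left out 1 uterus each: any of proestrus or estrus, metestrus 5, or diestrus 4 or 5. The Sox17 call was lost without diestrus uterus 4 (adjusted p = 0.0520), with counts rebuilt from TPM and in the fit of these stages alone (6.02e-05 to 0.225 over the alternatives). The median log2 fold change of the 10 genes was 0.62, beside -0.02 for all genes.

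From diestrus to the next proestrus 7 of the 10 fell, against 3.91% of all genes called lower. Gli1 fell by 2.63 on the log2 scale (SE 0.28, adjusted p = 1.33e-04), Ptch1 by 2.21 (SE 0.44, adjusted p = 0.00711), Hand2 by 1.17 (SE 0.26, adjusted p = 0.0125) and Sox17 by 1.13 (SE 0.14, adjusted p = 3.68e-04). Gata2 fell by 0.85 (SE 0.17, adjusted p = 0.00692) and Nr2f2 by 0.75 (SE 0.17, adjusted p = 0.0141). For Ihh, diestrus held 24.1 times the scaled counts of proestrus (95% counting interval 9.11 to 90.0; adjusted p = 3.58e-04). Zbtb16 had a log2 fold change of -2.60 ± 0.85 and did not pass (adjusted p = 0.0800). The Hand2 call was lost without proestrus uterus 1 or 3 or diestrus uterus 5 (2.20e-04 to 0.0641 over the alternatives), and the Nr2f2 call without proestrus uterus 1, 2 or 3 or diestrus uterus 5 (0.00114 to 0.0614). The Ptch1 call was lost only with counts rebuilt from TPM, where its adjusted p was 0.842 (from 1.10e-05 over the alternatives). The median log2 fold change of the 10 genes was -1.15.

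Between stages that are not neighbours, diestrus was above estrus for 7 of the 10 genes, against 9.72% of all genes called higher. The log2 fold changes were 3.80 ± 0.32 for Gli1 (adjusted p = 1.10e-05), 2.59 ± 0.46 for Ptch1 (0.00149), 1.59 ± 0.15 for Sox17 (1.63e-05), 1.13 ± 0.26 for Hand2 (0.00697) and 0.96 ± 0.17 for Gata2 (0.00147). Of these, only the Ptch1 call was lost in an alternative, with counts rebuilt from TPM (adjusted p = 0.0599). Zbtb16 rose by 2.83 ± 0.87 (adjusted p = 0.0325), a call lost without any of the estrus uteri or without diestrus uterus 4 or 5 (7.79e-04 to 0.103 over the alternatives), and Ihh passed with an adjusted p of 8.24e-05. The median log2 fold change of the 10 genes was 1.36, beside 0.00 for all genes. Metestrus was above proestrus for 3 of the 10, Ihh (adjusted p = 0.0172), Ptch1 (log2 fold change 1.73 ± 0.45, adjusted p = 0.0483) and Gli1, against 2.49% of all genes called higher. That count of 3 was 0 without proestrus uterus 2 or 3, 1 without proestrus uterus 1 or metestrus uterus 7, and 6 without metestrus uterus 6. The number of all genes called in either direction moved too, from 519 to 78 and 108 without proestrus uterus 2 or 3, to 188 and 211 without proestrus uterus 1 or metestrus uterus 7, and to 1080 without metestrus uterus 6. The metestrus against proestrus call of Ihh was lost in 5 of 17 alternatives (adjusted p from 0.00319 to 0.0836 over all 17). These were leaving out proestrus uterus 1, 2 or 3 or metestrus uterus 7, and counts rebuilt from TPM. That of Ptch1 was lost in 12 of 19 alternatives, among them leaving out any 1 proestrus, estrus or diestrus uterus. Without metestrus uterus 7 the Ptch1 log2 fold change fell to 0.91 (adjusted p = 0.165, and 0.00133 to 0.983 over the alternatives).

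**Figure D2:**
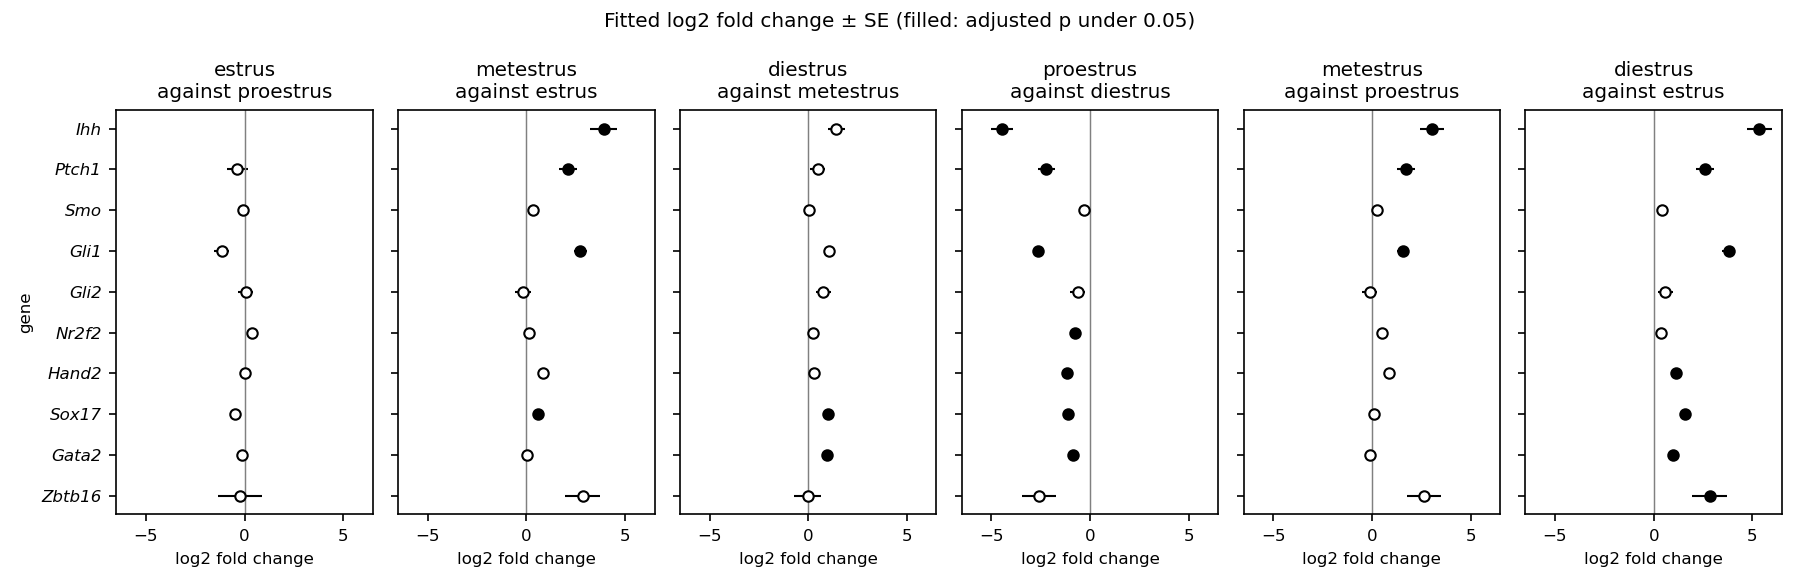
Fitted log2 fold change (x axis) ± SE of each gene in the 6 contrasts, filled where the adjusted p was under 0.05; Ihh is left out of estrus against proestrus, where both stages lay at or under the floor. Filled points lie to the right in metestrus and diestrus against estrus and to the left in proestrus against diestrus, and the points of Smo and Gli2 are open throughout.

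The 3 metestrus uteri were not alike in these genes. As a percentage of the diestrus mean, Ihh stood at 20.8%, 32.5% and 58.1% in metestrus uteri 5, 6 and 7, and Gli1 at 39.2%, 47.7% and 57.5%. Both genes were thus intermediate in all 3 uteri. Ptch1 stood at 41.6% and 38.9% in uteri 5 and 6 but at 135% in uterus 7, and Zbtb16 at 14.1%, 37.2% and 257%. Hand2 stood at 75.8%, 54.9% and 112%, and Nr2f2 at 85.7%, 66.1% and 101%. Sox17 (54.4%, 52.2% and 41.3%) and Gata2 (53.8%, 62.5% and 39.2%) were instead lowest in uterus 7. Metestrus uterus 7 therefore stood at or above diestrus for Ptch1, Zbtb16, Hand2 and Nr2f2 and below the other 2 for Sox17 and Gata2.

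**Figure D3:**
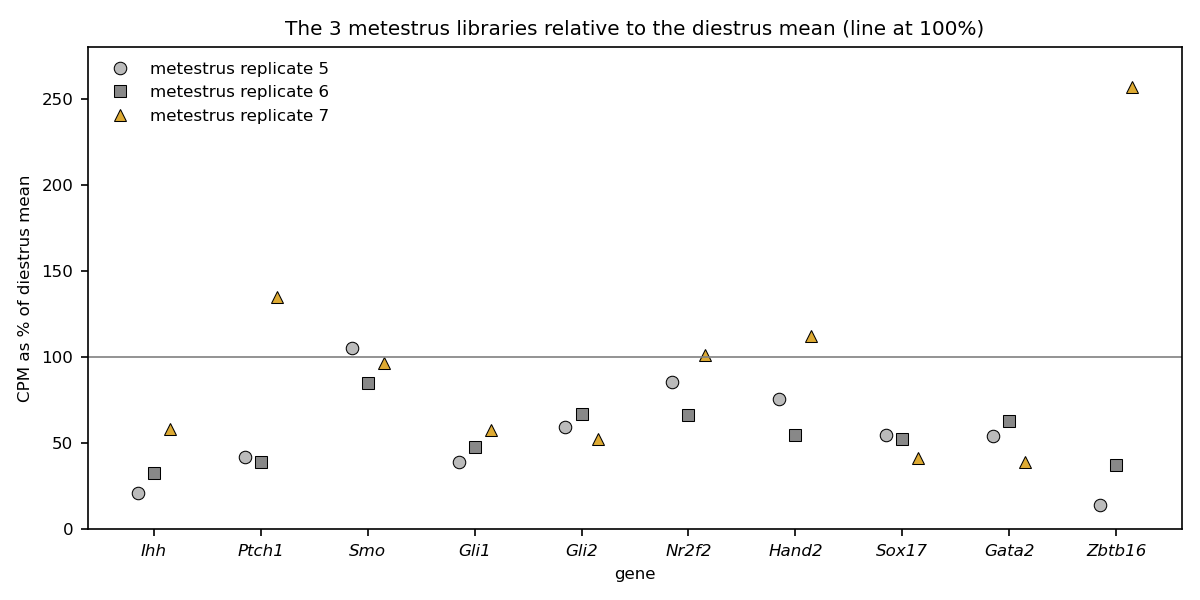
Level of each gene in metestrus uteri 5 (circles), 6 (squares) and 7 (triangles) as a percentage of its diestrus mean (y axis, linear; line at 100%). The triangles of Ptch1 and Zbtb16 lie at 135% and 257%, while those of Sox17 and Gata2 lie at 41.3% and 39.2%, under the other symbols.

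Metestrus uterus 7 was also alone among the metestrus uteri in several progesterone-related genes outside the set. Il13ra2, an interleukin receptor of progesterone-primed stroma, stood there at 42.6 CPM against 0.515 and 0.627 CPM in uteri 5 and 6. Cyp26a1, a retinoic acid hydroxylase of the epithelium under progesterone, stood at 113 CPM against 0.515 and 1.25 CPM. Fst, which encodes the activin antagonist follistatin, stood at 84.1 CPM against 6.18 and 11.9 CPM. The gland proteases Prss28 and Prss29 stood at 76.9 and 295 CPM in uterus 7 and at no more than 0.515 and 0.627 CPM in the other 2. In the diestrus uteri Prss28 stood at 0, and Prss29 and Cyp26a1 at no more than 0.495 and 1.12 CPM. Il13ra2 and Fst, in contrast, reached 20.6 and 91.8 CPM in diestrus. These genes were picked after their values were seen, and not all genes of the progesterone list stood apart in this way. The progesterone receptor gene Pgr, for example, was lowest in uterus 7 among the metestrus uteri. Whether uterus 7 differed in its timing or in its share of gland was not tested.

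Among 37 other genes of the hedgehog pathway, 29 had enough counts to be tested and 12 differed over the stages, against 23.2% of all genes, 7 of them with their highest mean in diestrus, 3 in estrus and 2 in proestrus. The count was 7 without estrus uterus 5 and 4 with counts rebuilt from TPM, and the share of all genes was not counted in these alternatives. The other ligands were near absent: Shh had 1 count in all, in proestrus, and Dhh had means of 0.514 to 1.57 CPM. Of 6 receptors, co-receptors and surface inhibitors 2 differed, Hhip among them. Hhip, a surface protein that soaks up ligand and is a GLI target, had means of 3.33, 0.341, 4.83 and 15.3 CPM in cycle order (adjusted p = 0.00190). It stood at 15.8, 18.2 and 11.8 CPM in diestrus uteri 3, 4 and 5, above every uterus of the other stages.

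Of the genes for the release of ligand, Scube1 had means of 38.0, 6.25, 27.7 and 51.4 CPM (adjusted p = 0.0197) and Scube2 had its highest mean in estrus, with 4.85, 17.0, 6.25 and 9.28 CPM (adjusted p = 0.0176). The Scube1 call was lost without estrus uterus 3, 4 or 5 (up to 0.0930 over the alternatives), and the Scube2 call without estrus uterus 5 (up to 0.115). The co-receptor genes Cdon (adjusted p = 0.873), Boc (0.678) and Gas1 (0.206) did not pass. In the relay, Evc2, which encodes a ciliary partner of Smo, had means of 5.96, 10.6, 17.5 and 20.4 CPM (adjusted p = 0.00788). Sufu, the gene of the main inhibitor of GLI factors, had means of 15.3, 10.9, 17.2 and 24.1 CPM (adjusted p = 0.00877, but 0.167 with counts rebuilt from TPM), and Gli3 did not pass (adjusted p = 0.132). Evc, Gpr161 and Prkaca also passed, with adjusted p of 0.0236, 0.0429 and 0.0492. These calls were lost in 5 of 17, 8 of 16 and 13 of 17 alternatives, with adjusted p up to 0.0956, 0.209 and 0.138. Leaving out proestrus uterus 2 or 3 or diestrus uterus 4 ended all 3 of them, and each of the other proestrus, estrus and diestrus uteri, and metestrus uterus 5, ended 1 or more.

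The genes listed as targets did not share 1 direction. All 4 that could be tested differed, but Hhip alone of them was highest in diestrus. Mycn, a growth-promoting transcription factor, had means of 14.0, 28.3, 7.58 and 1.20 CPM in cycle order (adjusted p = 5.52e-04), and its highest diestrus uterus, at 2.47 CPM, lay below its lowest metestrus uterus, at 4.39 CPM. The cell cycle gene Ccnd1 was highest in proestrus, with means of 136, 50.4, 87.5 and 114 CPM (adjusted p = 0.00200). The survival gene Bcl2 was highest in estrus, with means of 35.2, 78.3, 70.2 and 49.1 CPM (adjusted p = 0.0442; lost in 11 of 18 alternatives, which include leaving out any 1 of the proestrus, estrus or diestrus uteri, with values up to 0.133).

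**Figure D4:**
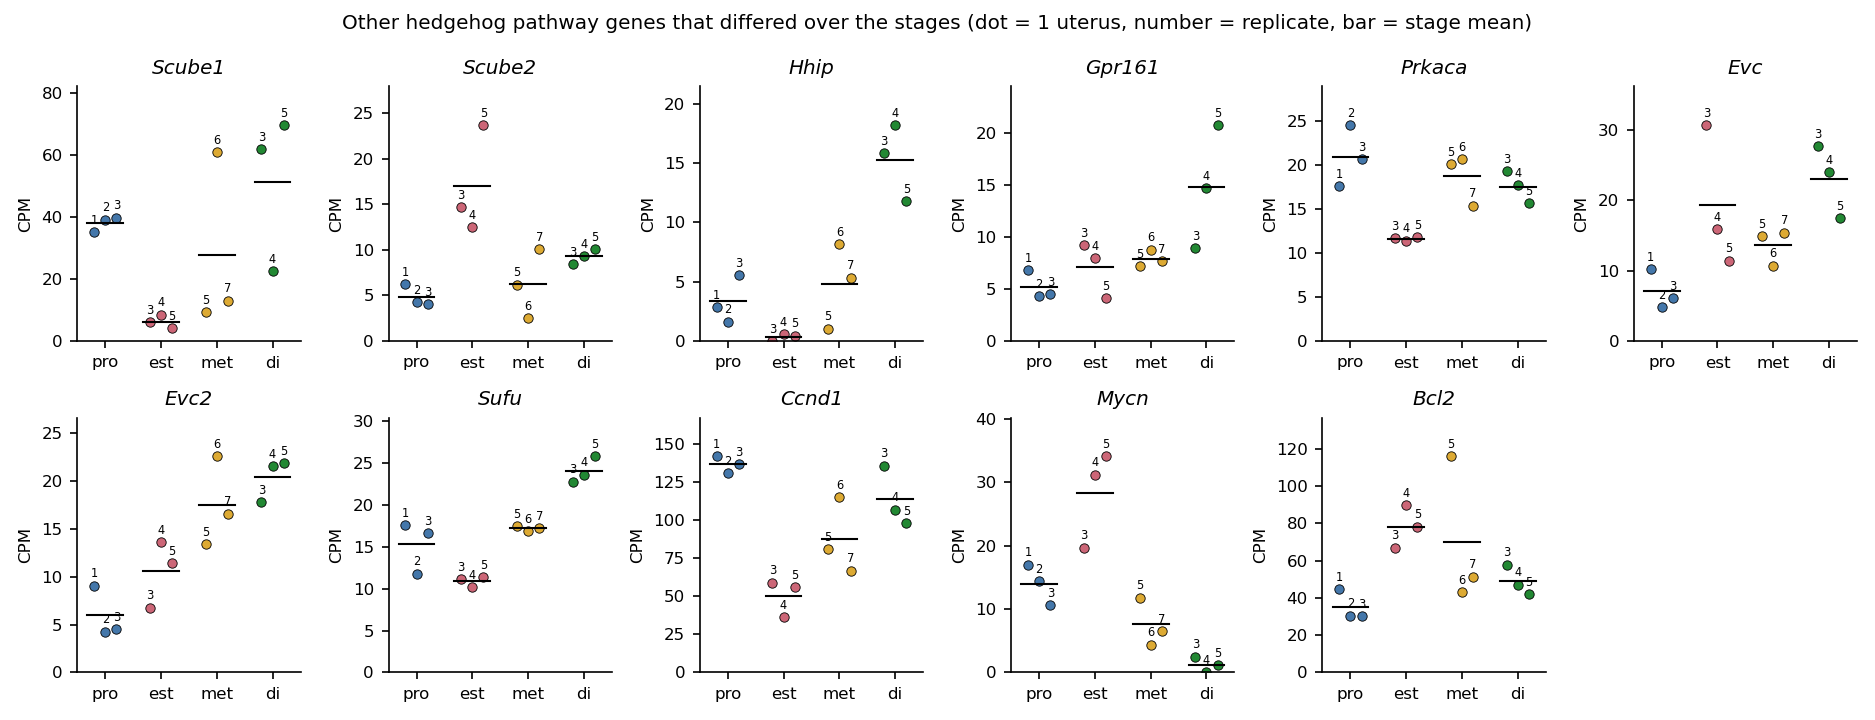
Level in CPM (y axis, linear, from 0) of 11 other hedgehog pathway genes that differed over the stages (pro, est, met and di as above), with 1 dot per uterus, its number and a bar at the stage mean. Hhip is highest in the 3 diestrus uteri, whereas Mycn is highest in estrus and lies between 0 and 2.47 CPM in diestrus.

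The progesterone genes around the set were of mixed timing: of 34 listed, 29 were tested and 15 differed, against 23.2% of all genes, 7 highest in diestrus, 5 in estrus, 2 in metestrus and 1 in proestrus. Pgr, the progesterone receptor, stood at 269, 219 and 280 CPM in proestrus uteri 1, 2 and 3, at 77.4, 71.0 and 80.5 CPM in estrus uteri 3, 4 and 5, at 170, 281 and 133 CPM in metestrus uteri 5, 6 and 7, and at 304, 162 and 172 CPM in diestrus uteri 3, 4 and 5. The estrus uteri were below all others (adjusted p of the F test 0.00321), and proestrus, where Ihh was near the floor, did not pass against diestrus (log2 fold change 0.27 ± 0.26, adjusted p = 0.628). Fkbp4, a chaperone of the receptor, had means of 213, 118, 229 and 232 CPM (adjusted p = 0.00417). Lrp2, an epithelial endocytic receptor, had means of 2.99, 1.35, 8.92 and 38.6 CPM (adjusted p = 0.00123), and Fst had means of 4.33, 1.90, 34.0 and 49.9 CPM (adjusted p = 0.0102). Fkbp5, a chaperone gene induced by steroid receptors, was highest in diestrus at 13.8 ± 2.67 CPM (SD, n = 3; adjusted p = 0.0252), a call lost without proestrus uterus 1 or 2 or diestrus uterus 3 or 5 (up to 0.117 over the alternatives). Cited2, Klf9 and Pgrmc1 were instead highest in estrus, with adjusted p of 0.00124, 0.00215 and 0.0181. The Pgrmc1 call was lost without proestrus uterus 2 or 3 or estrus uterus 4 or 5 (up to 0.0658). Areg, an epidermal growth factor ligand, had counts in diestrus only, with a mean of 4.33 ± 4.75 CPM, and was not tested.

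Among stromal mediators of progesterone action, 5 of 12 tested genes differed, against 23.2% of all genes. The homeobox genes Hoxa10 (means 149, 97.8, 286 and 351 CPM; adjusted p = 7.84e-05) and Hoxa11 (29.8, 13.9, 68.4 and 74.7 CPM; 3.88e-04) were lowest in estrus and highest in diestrus. So was the homeobox gene Msx1, with 112, 51.7, 180 and 291 CPM (adjusted p = 0.00171). Cebpb, a leucine zipper factor of decidualization, had means of 109, 136, 72.9 and 37.3 CPM (adjusted p = 6.52e-05), and Foxo1 had means of 129, 143, 132 and 83.4 CPM (adjusted p = 0.0203, lost without diestrus uterus 4 or 5 and with counts rebuilt from TPM, up to 0.0992). Both were thus highest in estrus and lowest in diestrus. Fgf9, a fibroblast growth factor of the kind that Hand2 restrains, did not pass (adjusted p = 0.104).

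Of 14 paralogs of the 10 genes, 8 had enough counts to be tested and 2 differed, Sox7 among them, a share near the 23.2% of all genes. Sox7, an endothelial relative of Sox17, had means of 14.2, 22.1, 4.81 and 2.65 CPM in cycle order (adjusted p = 0.0106), so that it was highest in estrus, where Sox17 was lowest, and lowest in diestrus, where Sox17 was highest. Nr2f1 (adjusted p = 0.108), Sox18 (0.293), Gata3 (0.692) and Gata6 (0.737) did not pass.

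Markers of the cell types that make or receive the signal also moved over the cycle. All 8 epithelial markers differed over the stages, against 23.2% of all genes, 3 highest in proestrus, 4 in estrus and 1 in diestrus. The call of Cldn3 was lost in 6 of 18 alternatives, 5 of them without proestrus uterus 1 or 3, estrus uterus 3 or 5 or diestrus uterus 4 (up to 0.0917), and that of Krt19 without proestrus uterus 2 and with counts rebuilt from TPM (up to 0.0585). Their summed level was 1458 to 1918 CPM in proestrus, 1595 to 1843 in estrus, 609 to 1119 in metestrus and 658 to 796 in diestrus. Ihh, Lrp2 and Sox17, which are genes of the epithelium, were highest in diestrus, where summed epithelial markers were less than in proestrus and estrus. Of the 8 markers, 7 were called higher in proestrus than in diestrus and 1 lower, Cldn3 (70.8 and 141 CPM). The part of epithelial content in the levels of Ihh, Lrp2 and Sox17 was not tested. Summed gland markers were 0 to 3.53 CPM in proestrus, 3.64 to 11.1 in estrus, 10.8 to 379 in metestrus and 25.3 to 53.5 in diestrus. The gland factor gene Foxa2 had means of 1.93, 4.04, 5.86 and 11.3 CPM in cycle order, and the gland chemokine gene Cxcl15 had means of 0, 1.74, 6.82 and 31.1 CPM. Both of these genes differed over the stages, but the Foxa2 call (adjusted p = 0.0277) was lost without proestrus uterus 1, estrus uterus 4 or 5, or diestrus uterus 3 or 4 (up to 0.104 over the alternatives). The median of summed gland markers was 3.40, 6.25, 20.7 and 49.6 CPM in cycle order. The sum did not follow Ihh in each uterus. It was highest in metestrus uterus 7, where Prss29 made up 295 CPM of it. Diestrus uterus 5, with the highest Ihh level, had the lowest diestrus sum, at 25.3 CPM. The part of gland content in the level of Ihh was not tested.

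Summed stromal markers were 8832 to 8859 CPM in proestrus, 6906 to 7249 in estrus, 4706 to 10072 in metestrus and 6096 to 7996 in diestrus, but this sum is mostly Dcn, Col1a1 and Col3a1. The 6 stromal markers did not share 1 direction between proestrus and diestrus, with a median log2 fold change of proestrus against diestrus of 0.06. Pdgfra, a receptor of uterine fibroblasts, was the 1 marker of them called in that contrast and was lower in proestrus, at 45.8 CPM against 113 CPM in diestrus (log2 fold change -1.30 ± 0.15, adjusted p = 1.90e-04). In this contrast Pdgfra thus differed in the same direction as Ptch1, Gli1 and Hand2. Its highest mean, however, was in estrus, at 134 CPM, where Ptch1 and Gli1 had their lowest, at 8.46 and 2.65 CPM. Hand2 had a mean of 58.4 CPM in estrus. Among the other stromal markers, Dcn was higher in proestrus (2457 CPM) than in diestrus (1730 CPM). Vcan was lowest in estrus (11.3 CPM) and highest in diestrus (68.5 CPM). The part of stromal content in the levels of Ptch1, Gli1 and Hand2 was not tested. Vessels also express Sox17 and Gata2. Summed blood vessel markers were 1478 to 1625 CPM in proestrus and 1347 to 1513 in diestrus, a sum that is almost all Pecam1 (means of 1414 and 1192 CPM). The other 7 vessel markers had higher means in diestrus, among them Cdh5 (35.5 and 55.2 CPM), Emcn (20.0 and 34.3 CPM) and Egfl7 (48.3 and 65.3 CPM). None of the 8 passed the F test, against 23.2% of all genes, or the test of proestrus against diestrus. The same 7 had their highest means in metestrus (Cdh5 56.3 CPM, Emcn 36.3 CPM), where Sox17 and Gata2 had means of 50.9 and 77.4 CPM. The median log2 fold change of the 8 vessel markers for proestrus against diestrus was -0.54, beside -0.00 for all genes, and the part of vessel content in the levels of Sox17 and Gata2 was not tested. Summed leukocyte markers were highest in estrus, at 247 to 284 CPM, apart from metestrus uterus 7 at 310 CPM. Of the 5 markers, 3 had their highest mean in estrus, 1 in proestrus and 1 in metestrus. The defining markers of uterine epithelium, stroma, smooth muscle and vessels were all present. The ovarian genes Amh and Cyp19a1, the oviduct gene Dynlrb2 and the adipocyte gene Cidec were at or under 3 counts in every library. The oviduct marker Ovgp1 was present, at 39.6 to 48.5 CPM in estrus and with means of 14.3 to 17.6 CPM in the other stages (adjusted p of the F test 0.0344; lost in 7 of 17 alternatives, up to 0.122), and so was the ovary marker Star, with means of 11.2 to 15.9 CPM, which did not pass (0.527).

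**Figure D5:**
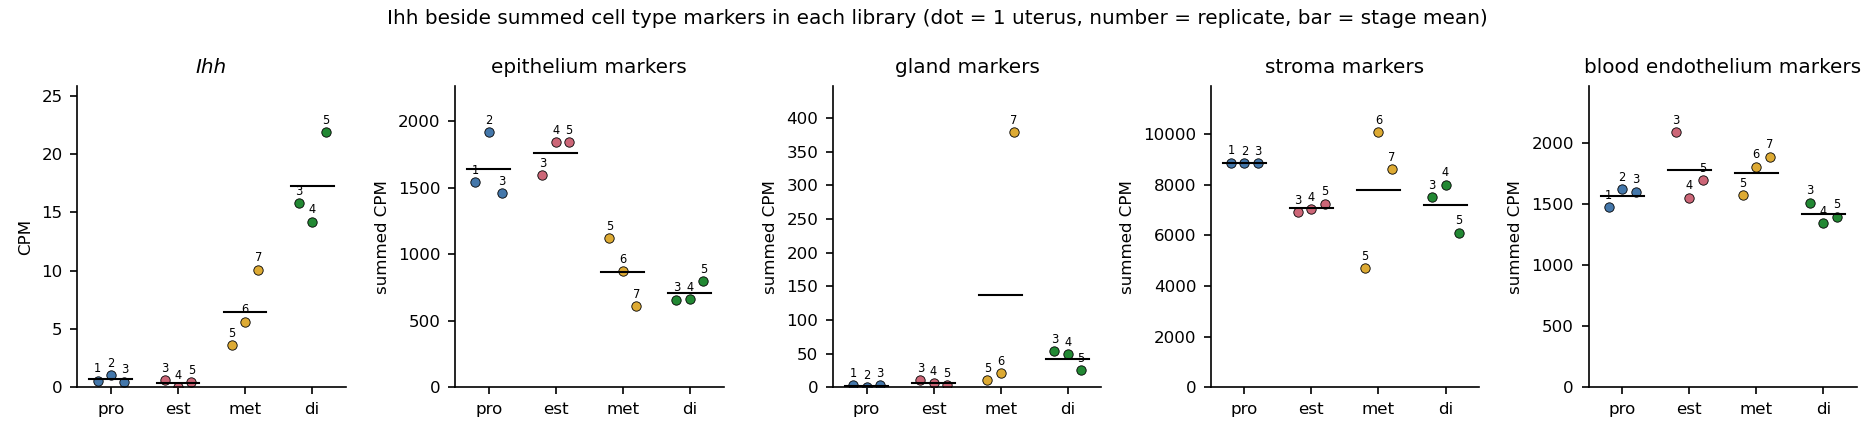
Ihh in CPM and the summed CPM of epithelial, gland, stromal and blood vessel markers (y axes, linear, from 0) by stage (pro, est, met and di as above), with 1 dot per uterus, its number and a bar at the stage mean. Ihh is highest in diestrus, where summed epithelial markers lie between 658 and 796 CPM, and gland markers reach 379 CPM in metestrus uterus 7.

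The genes whose level followed each of the 10 most closely were found by Pearson's r of log2 CPM over the 12 uteri, which share the stages and the depth of their libraries; r is a description only. Ihh was most like Pkdcc (r = 0.987), Phlda3 (0.970) and Wfdc1 (0.967). Gli1 was most like Osr2 (0.987), Hoxd11 (0.968) and Kank4 (0.967), and Ptch1 most like Echdc2 (0.963), Abcc4 (0.948) and Zfyve21 (0.942). Within the set, r was 0.96 between Ihh and Gli1, 0.93 between Ihh and Ptch1 and 0.92 between Ptch1 and Gli1. After the stage means were taken out, these were 0.43, 0.53 and 0.50. Most of the likeness thus lay between stages.

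Sox17 was most like Clcn5 (r = 0.942 over the 12 uteri), H2afy2 (0.939) and Zmpste24 (0.933), and Gata2 most like Haus8 (0.921), Actr8 (0.897) and Zmym4 (0.885). Hand2 was most like Chst2 (0.936) and Zfand3 (0.922), and Nr2f2 most like Apbb2 (0.934), Basp1 (0.930) and Cd83 (0.915). Zbtb16 was most like Cited4 (0.942), Fst and Sun1 (both 0.935). For the genes that did not differ over the stages, Smo was most like Mlycd (0.913) and Rtl8b (0.894), and Gli2 most like Gatc (0.869), Adam15 (0.850) and Esyt1 (0.843). Without metestrus uterus 7, an alternative added after the data were seen, r of the 30 pairs computed ran from 0.855 to 0.987.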

How the data were processed

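The 10 genes and all lists were chosen with earlier results of these data known. The authors deposited 1 table of 119414 transcripts per sample with estimated counts and TPM, per the file headers. The submitters' processing notes name FastQC, kallisto and DESeq2; the genome build, transcript set and use of strand are not given in the sources used here. TPM, the authors' counts per effective length scaled to 1 total, served as an alternative only.

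Transcript identifiers without version were matched to GENCODE M21 (GRCm38): 97.7% matched, and the rest held 0.619% to 0.774% of each library and were left out. Estimated counts were summed per gene and rounded. Genes were filtered with filterByExpr by stage (12052 left), scaled with TMM factors (0.907 to 1.05) and fitted with 1 coefficient per stage over all 12 samples in edgeR 4.0.16 (R 4.3.3) by the quasi-likelihood method, with an F test over stages and 6 two-sided contrasts, each adjusted by Benjamini-Hochberg over all tested genes and called under 0.05. Contrasts are log2 fold changes ± SE. The code was tested on simulated counts. Ratios of Ihh counts carry exact 95% intervals. Log2 CPM used a prior count of 2. Stage order in lists is proestrus, estrus, metestrus, diestrus.

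Named beside the 10 genes are, from each list, those that passed the F test in order of p (up to 8), and the 3 genes nearest to each of the 10 by r; other genes did not pass or were picked after their values were seen, as stated beside them. Alternatives were RLE scaling, library totals, no filter, a mean of at least 50 counts, DESeq2 1.42.0, counts rebuilt from TPM, leaving out each sample, and the 6 samples of a contrast alone. Samples sharing a number in estrus and diestrus did not deviate together. A few genes that these rules name are not reported here, though counts include them.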

Additional observations from a re-analysis of the deposited data

How the results depend on the processing

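Of 174 alternative F tests of the 10 genes, 160 stayed on their side of the threshold and 14 lost the call; of 432 alternatives of the 23 contrasts called in the main analysis, 367 kept the call, 65 lost it and 0 changed sign. Leaving out 1 sample at a time, the number of the 10 genes that differed over the stages ran from 6 to 8, hedgehog genes from 7 to 14 and progesterone genes from 11 to 19; by contrast, the number called was 0 to 1 for estrus against proestrus, 2 to 4 for metestrus against estrus, 0 to 2 for diestrus against metestrus, 5 to 8 for proestrus against diestrus, 0 to 6 for metestrus against proestrus and 6 to 7 for diestrus against estrus. Over all genes the ranges of the 6 contrasts were, in the same order, 1101 to 2411, 339 to 1364, 5 to 173, 519 to 1281, 78 to 1080 and 1913 to 3142. For the F test over the stages, the number of all genes called was not counted in the alternatives, so those ranges have no background beside them. The lowest value for metestrus against estrus came without estrus uterus 3 or 4, and 0 for diestrus against metestrus came without diestrus uterus 4. With a mean of at least 50 counts, under which Ihh, Gli1, Gli2 and Zbtb16 were not tested, 5 of the 10 genes and 4 hedgehog genes differed over the stages. The contrasts held 1 call (estrus against proestrus), 2 (metestrus against estrus), 1 (metestrus against proestrus) and 4 (diestrus against estrus). Beside these were 1457, 691, 414 and 1811 calls among the 5481 genes tested. With counts rebuilt from TPM, where Gli2 and Zbtb16 were not tested, 5 of the 10 genes and 4 hedgehog genes differed, and the contrasts held 2 calls (metestrus against estrus), 0 (diestrus against metestrus) and 1 (metestrus against proestrus), beside 409, 0 and 157 of 9683 genes. With the 6 samples of a contrast alone, 1 gene was called for estrus against proestrus, 1 for metestrus against estrus, 0 for diestrus against metestrus and 0 for metestrus against proestrus, beside 2789, 297, 0 and 42 of all genes tested in each. Estrus against proestrus gave 1 call with RLE scaling and 1 with library totals, and metestrus against proestrus gave 5 calls with no filter and 5 with DESeq2. Over all genes the calls were, in the same order, 2057 and 1877 of 12052, 936 of 20686 and 693 of 12052. The cause of these shifts was not tested, other than that a stricter filter tests fewer genes. Same-numbered estrus and diestrus samples had deviations that correlated at -0.043, 0.013 and -0.017, and differently numbered ones at -0.030 to 0.044. No pairing by number was seen in these 2 stages, but a shared day or batch was not tested. With the replicate block the 6 samples of these stages gave 7 calls, as without it, beside 2927 and 3244 of 11359 genes. At 1.36 to 1.88 CPM for 3 counts, changes in Ihh between proestrus and estrus could not be seen.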
